A study of Mus musculus with 6 samples.

Results

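The antioxidant and Nrf2 target genes Nqo1, Gclc, Gclm, Txnrd1, Srxn1, Sod1, Sod2, Cat, Gpx1 and Prdx6 were read out in the gastrocnemius, a calf muscle of mostly fast fibres, of old and young male mice. They were taken by name, as the probes whose transcript accession maps to one of these 10 symbols. All 10 were found, through 14 of the 55681 gene probes on the array, and all 10 were among the 20906 genes tested, since 13 of their 14 probes passed the filter on dim signals. The old group was 3 samples of muscle from mice aged 25 months, which the study describes as atrophied by ageing, and the young group was 3 samples from mice aged 13 weeks. No treatment or genetic change is named in the labels for either age, and the strain is not given in the sources used here. The labels number the samples without saying that each came from its own animal, so p-values speak only of sample-to-sample spread, some of which may be technical.

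Nrf2 (gene Nfe2l2) is a transcription factor that Keap1 holds in the cytoplasm and hands to the proteasome. When electrophiles or peroxides modify Keap1, Nrf2 reaches the nucleus, pairs with a small Maf protein and binds antioxidant response elements near genes for glutathione synthesis, thiol reduction and quinone detoxification. Other enzymes remove superoxide and hydrogen peroxide where they arise, with Sod2 in the mitochondrial matrix, catalase in the peroxisome, and Sod1, Gpx1 and Prdx6 largely in the cytosol. Contracting muscle produces superoxide and hydrogen peroxide. The members were read as 5 Nrf2 targets and 5 other enzymes, with Sod2 and Cat standing for the mitochondrial and the peroxisomal enzymes. This grouping does not say that the 5 other enzymes lack control by Nrf2.

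Every RNA had its own single-colour (Cy3) array, and the 6 arrays shared 1 slide and 1 scan. Values below are log2 signals minus the 75th percentile of the same array, so a value of 1 lies a doubling above that percentile, and levels are compared only within a probe. Between 49.9% and 54.8% of the gene spots on an array were well above background, with old replicate 1 the highest, and none of these spots was saturated. With 3 arrays per age, precision is set by how few arrays there are. Slide row 2 held old replicates 2 and 3 and no young array, while row 1 held the other 4 arrays. All 9 muscle fibre markers, among them Acta1, Ckm and Myh4, were measured.

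In limma's test, with p-values adjusted over all genes by Benjamini-Hochberg, 0 of the 10 members had an adjusted p under 0.05, against 0.254% of the 20906 genes tested (0.196% higher and 0.0574% lower in old muscle). At an unadjusted p under 0.05 there were 2 members, Nqo1 and Sod2, against 14.5% of all genes. The 5 Nrf2 targets all had a positive log2 difference (old minus young, here and throughout), with a median of 0.45, where 43.1% of all genes had a positive one and the median of all genes was -0.06. The other 5 enzymes had a median of -0.06, 2 of them positive and 3 negative. In 4 of the 10 members old and young arrays were fully separated, against 21.8% of all genes. Srxn1 and Nqo1 were separated upwards in old muscle (7.93% of all genes) and Sod1 and Sod2 downwards (13.9%).

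**Figure D1:**
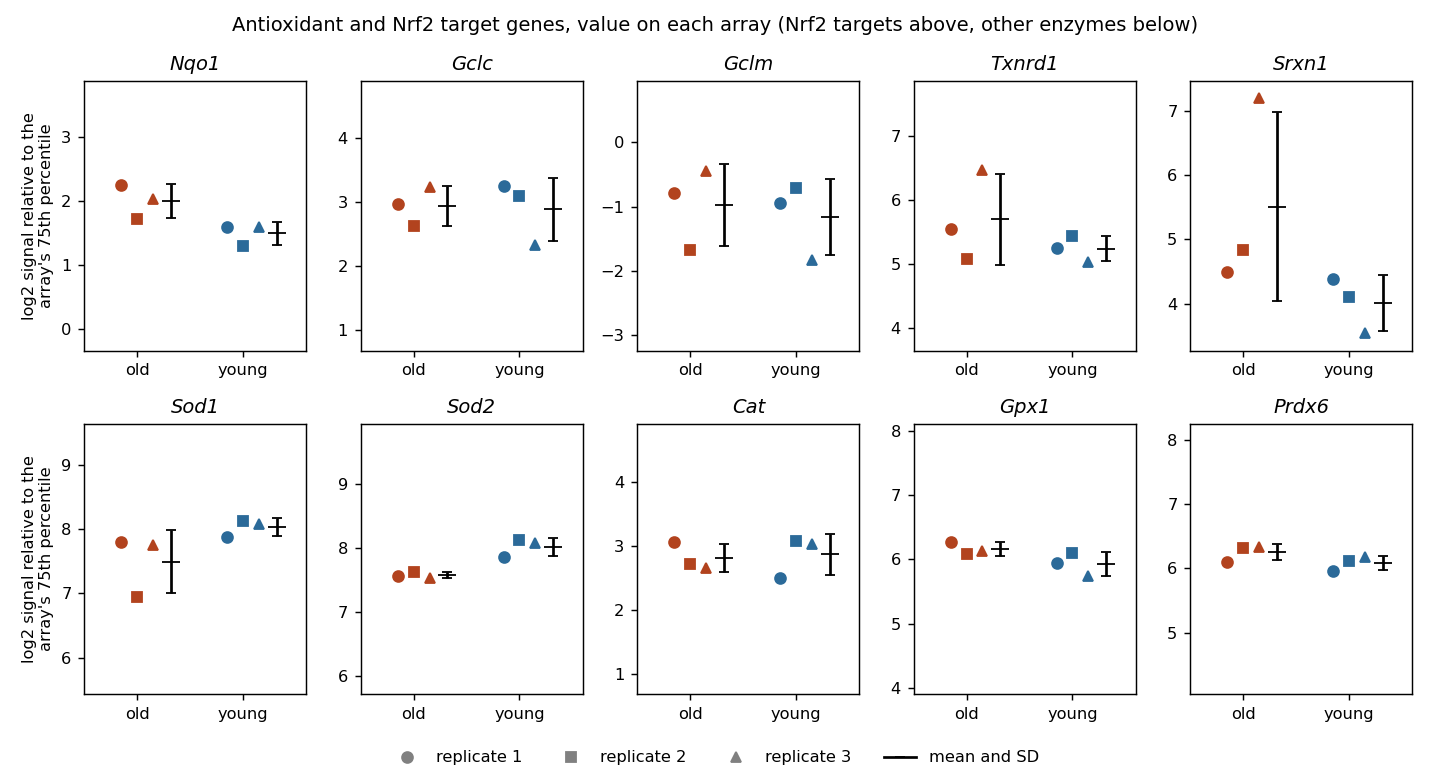
Log2 signal relative to the array's 75th percentile (vertical axis) of each member on the old arrays (red) and the young arrays (blue), with a symbol per replicate and the mean with its SD in black; every panel spans the same number of log2 units. Srxn1 reaches 7.20 on old replicate 3, and the old values of Sod2 all lie below the young ones.

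Srxn1 encodes sulfiredoxin, which reduces over-oxidised peroxiredoxins and so returns them to work, and it had the largest difference of the 10. It measured 4.50, 4.84 and 7.20 on old replicates 1, 2 and 3, against 4.39, 4.10 and 3.54 on young replicates 1, 2 and 3. The groups did not overlap, but old replicates 1 and 2 lay close above the highest young value and old replicate 3 far above all others. The difference was 1.50 ± 0.69 (SE, 3 arrays per age, as in all differences below), 2.83-fold higher in old muscle, with a 95% interval from -0.14 to 3.14 on the log2 scale (limma's adjusted p = 0.381). Without old replicate 3 it was 0.66 (adjusted p = 0.620). Within slide row 1, which has a single old array (replicate 1), it was 0.49 (adjusted p = 0.831 in a fit with the row as a block, which assumes that this array varies like the others).

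Txnrd1, the cytosolic thioredoxin reductase, a selenoprotein that keeps thioredoxin reduced, was also brightest on old replicate 3. Its values were 5.54, 5.08 and 6.46 on old replicates 1, 2 and 3 and 5.25, 5.44 and 5.04 on young replicates 1, 2 and 3. The groups overlapped, as old replicate 2 lay below young replicates 1 and 2. The difference was 0.45 ± 0.35 (95% interval -0.38 to 1.29, limma's adjusted p = 0.578). Leaving out old replicate 3 gave 0.07, and leaving out old replicate 2 gave 0.76.

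The sequences before the transcription starts of Srxn1 and Txnrd1, both highest on old replicate 3, and of the members with the lowest p in each class, Nqo1 and Sod2, are shown to set the Nrf2 recognition sequence beside these values. They are the 250 bases before the annotated start, written 5′ to 3′ on the gene's strand, from RefSeq on GRCm38.p6. Capitals mark matches to TGACNNNGC or TGAGNNNGC on either strand, the core of the antioxidant response element and a variant of it.
Srxn1, chr2:152105274-152105523, plus strand: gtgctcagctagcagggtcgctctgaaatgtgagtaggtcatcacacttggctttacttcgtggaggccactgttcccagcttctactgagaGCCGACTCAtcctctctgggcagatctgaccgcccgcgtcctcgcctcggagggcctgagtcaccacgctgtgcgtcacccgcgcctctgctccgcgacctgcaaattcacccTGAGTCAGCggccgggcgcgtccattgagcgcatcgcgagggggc
Txnrd1, chr10:82858956-82859205, plus strand: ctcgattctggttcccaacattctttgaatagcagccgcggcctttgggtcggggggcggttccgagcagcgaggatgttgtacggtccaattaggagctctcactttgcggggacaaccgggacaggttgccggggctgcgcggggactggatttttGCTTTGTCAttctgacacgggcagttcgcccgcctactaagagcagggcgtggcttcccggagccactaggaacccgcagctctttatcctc
Nqo1, chr8:107403206-107403455, minus strand: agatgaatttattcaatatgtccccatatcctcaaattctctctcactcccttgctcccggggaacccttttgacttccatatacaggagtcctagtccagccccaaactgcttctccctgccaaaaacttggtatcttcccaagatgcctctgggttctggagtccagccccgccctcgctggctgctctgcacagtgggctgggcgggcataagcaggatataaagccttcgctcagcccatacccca
Sod2, chr17:13007589-13007838, plus strand: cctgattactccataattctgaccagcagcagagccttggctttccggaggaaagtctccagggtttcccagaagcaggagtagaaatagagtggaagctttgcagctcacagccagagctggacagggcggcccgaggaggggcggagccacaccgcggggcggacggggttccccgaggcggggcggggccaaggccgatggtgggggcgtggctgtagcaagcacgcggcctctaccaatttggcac

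The Srxn1 window holds TGAGNNNGC on the gene's strand, starting 45 bases before the start, and again on the opposite strand, starting 158 bases before it. For Txnrd1, which has 3 windows in the table, only the window shown holds a match, TGACNNNGC on the opposite strand, 92 bases before the start. The Nqo1 and Sod2 windows hold neither, which says only that these letters are not in these 250 bases. Windows were found for 8 of the 10 members (all but Gclc and Prdx6), and those of Gclm and Sod1 each held 1 match to TGACNNNGC, also on the opposite strand. Matches are common: of the 32851 windows in the table, 10.2% hold TGACNNNGC, 14.4% hold TGAGNNNGC and 23.0% hold either. A match is a description of letters and was not tested as a binding site.

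Nqo1, a quinone reductase widely used as a readout of Nrf2 activity, also lay higher on every old array. Its values were 2.24, 1.72 and 2.03 on old replicates 1, 2 and 3, against 1.59, 1.29 and 1.59 on young replicates 1, 2 and 3. Each old array lay above each young one. The difference was 0.50 ± 0.20, a 1.42-fold higher mean, with a 95% interval from 0.035 to 0.97 (unadjusted p = 0.0387 and adjusted p = 0.322 in limma's test over all genes). It stayed between 0.38 and 0.64 when each array was left out in turn, with an adjusted p of at least 0.309. Within slide row 1, so for 1 old array, it was 0.75.

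The subunits of glutamate-cysteine ligase, the enzyme that sets the rate of glutathione synthesis, did not separate by age. The catalytic subunit Gclc measured 2.97, 2.62 and 3.24 on old replicates 1, 2 and 3 and 3.24, 3.09 and 2.33 on young replicates 1, 2 and 3. The modifier subunit Gclm measured -0.80, -1.68 and -0.45 on old replicates 1, 2 and 3 and -0.94, -0.72 and -1.84 on young replicates 1, 2 and 3. In both, old replicate 2 and young replicate 3 were the lowest array of their age, so the spread within each age exceeded the difference between them. That difference was 0.06 ± 0.29 for Gclc (95% interval -0.64 to 0.75) and 0.19 ± 0.41 for Gclm (-0.78 to 1.16), with limma's adjusted p of 0.940 and 0.851. Centring each array on its median turned Gclc to -0.09, and leaving out young replicate 3 turned Gclc to -0.22 and Gclm to -0.15.

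**Figure D2:**
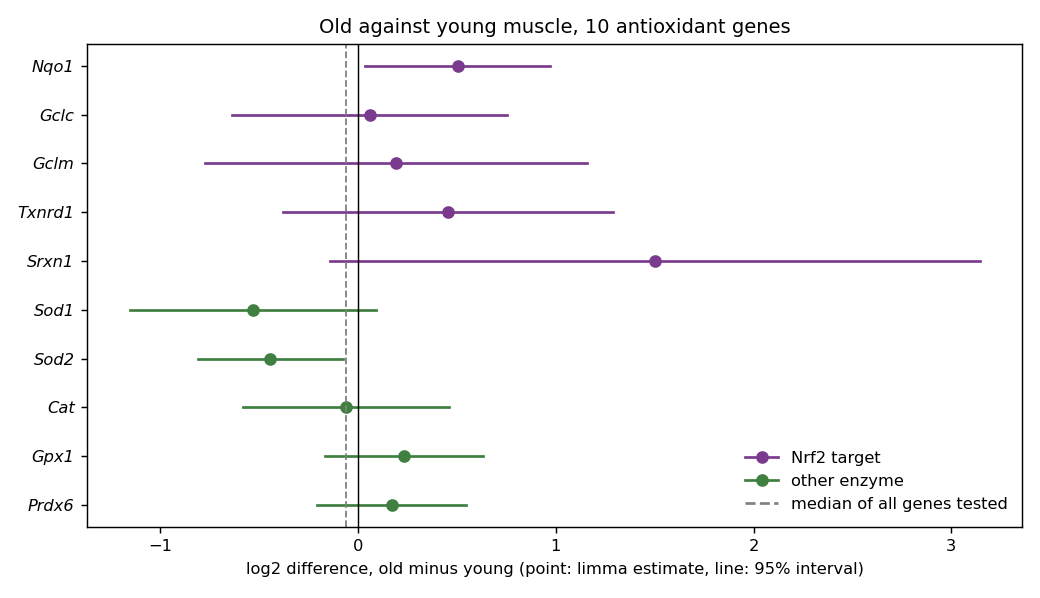
Log2 difference, old minus young, of the 10 members (horizontal axis), with limma's estimate as a point and its 95% interval as a line, the 5 Nrf2 targets above the 5 other enzymes. The intervals of Nqo1 (0.035 to 0.97) and Sod2 (-0.81 to -0.077) do not cross 0, and that of Srxn1 is the widest.

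Sod2, the manganese superoxide dismutase of the mitochondrial matrix, was the member with the lowest p. It measured 7.56, 7.62 and 7.53 on old replicates 1, 2 and 3, against 7.85, 8.12 and 8.08 on young replicates 1, 2 and 3. The old arrays lay within 0.1 of each other and all below the lowest young array. The difference was -0.44 ± 0.15, which is 1.36-fold lower in old muscle, with a 95% interval from -0.81 to -0.077 (unadjusted p = 0.0246 and adjusted p = 0.285 in limma's test over all genes). It ran from -0.53 to -0.39 over the fits that left out an array. Within slide row 1, again for 1 old array, it was -0.45. Across all 18 alternatives it stayed negative, with an adjusted p of at least 0.169.

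Sod1, the copper and zinc superoxide dismutase of the cytosol, was also lower on every old array. Its values were 7.79, 6.94 and 7.75 on old replicates 1, 2 and 3 and 7.87, 8.13 and 8.08 on young replicates 1, 2 and 3. Old replicates 1 and 3 lay just below the lowest young array, and old replicate 2 well below it. The difference was -0.53 ± 0.26 (95% interval -1.16 to 0.090, limma's adjusted p = 0.408). It was -0.25 without old replicate 2 and -0.23 within slide row 1, for 1 old array. Ccs, the chaperone that loads copper into Sod1, had a difference of -0.45 ± 0.22 with no overlap between the ages (adjusted p = 0.401).

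Catalase, which breaks down hydrogen peroxide in the peroxisome, did not separate by age. The tested probe of Cat measured 3.06, 2.72 and 2.65 on old replicates 1, 2 and 3 and 2.50, 3.08 and 3.02 on young replicates 1, 2 and 3. The lowest and the highest array were both young. The difference was -0.06 ± 0.22 (95% interval -0.58 to 0.46, limma's adjusted p = 0.913), and it was 0.12 with normexp background correction. The other probe of Cat had a difference of 0.34 ± 0.34, so the probes disagreed in sign, and neither had an unadjusted p under 0.05.

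Gpx1 and Prdx6, which reduce peroxides with glutathione, had small positive differences. Gpx1, a selenoprotein, measured 6.27, 6.08 and 6.13 on old replicates 1, 2 and 3 and 5.94, 6.10 and 5.73 on young replicates 1, 2 and 3. The brightest probe of Prdx6 measured 6.11, 6.31 and 6.34 on old replicates 1, 2 and 3 and 5.96, 6.12 and 6.17 on young replicates 1, 2 and 3. Old and young values overlapped in both genes. The differences were 0.23 ± 0.17 for Gpx1 (95% interval -0.17 to 0.63) and 0.17 ± 0.16 for Prdx6 (-0.21 to 0.54), with limma's adjusted p of 0.552 and 0.645.

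Prdx6 had 4 probes, 3 of them measured on every array. Its other measured probes gave differences of 0.55 ± 0.35 and 0.74 ± 0.52, in both of which young replicate 3 was the lowest array, at 3.49 and 2.08. The remaining probe was never well above background. Over the alternatives the difference of Prdx6 ran from 0.022 to 0.49. The annotation also holds Prdx6b and the pseudogene Prdx6-ps2, so the probes may not tell all copies apart.

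A wider list of 27 other Nrf2 targets did not share the positive median of the 5 members. Of the 26 tested, 13 had a positive and 13 a negative difference, with a median of 0.00, and none passed the adjusted threshold of limma's test (lowest adjusted p = 0.223), with 5 at an unadjusted p under 0.05 (14.5% of all genes). In 3 the ages did not overlap, against 21.8% of all genes. All 3 were higher in old muscle (7.93% of all genes) and 0 were lower (13.9%). These counts were not tested. Pgd, an NADPH-producing enzyme of the pentose phosphate pathway, measured 2.81, 2.52 and 2.74 on old replicates 1, 2 and 3 and 2.07, 2.27 and 1.99 on young replicates 1, 2 and 3, a difference of 0.58 ± 0.17. All 3 old values lay above the young ones. The glutathione transferase Gstm2 had 0.92 ± 0.29, and 2.03 and 0.73 by its other measured probes, though its family members are similar in sequence. Biliverdin reductase B (Blvrb) had 2.35 ± 0.78 with overlapping ages, well above background on 2 of 3 young arrays. The epoxide hydrolase Ephx1 had -0.82 ± 0.33, and -0.24 by its other probe.

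Srxn1 and Txnrd1 were 2 of the 3 Nrf2 target members that were brightest on old replicate 3, the third being Gclm. Of the other Nrf2 targets 5 of 26 were brightest there, and 16.7% of all genes were. Hmox1, the haem oxygenase, chosen here after its values were seen, measured 1.29, 0.83 and 2.77 on old replicates 1, 2 and 3 and 1.22, 0.00 and 0.08 on young replicates 1, 2 and 3. It was thus also highest on old replicate 3, with a difference of 1.20 ± 0.56 (limma's adjusted p = 0.385). Also read after the values were seen, Gsta3, Gstm1, Gstm3, Gstp1, Abcc1, Cbr1, Cbr3 and Ephx1 of the 26 were lowest on that array. More of the other targets were thus lowest there than brightest, but the share of all genes lowest there was not computed. With each gene centred on its mean, the median of the 26 was 0.14, 0.058 and 0.068 on old replicates 1, 2 and 3. On young replicates 1, 2 and 3 that median was 0.058, -0.017 and -0.059.

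**Figure D3:**
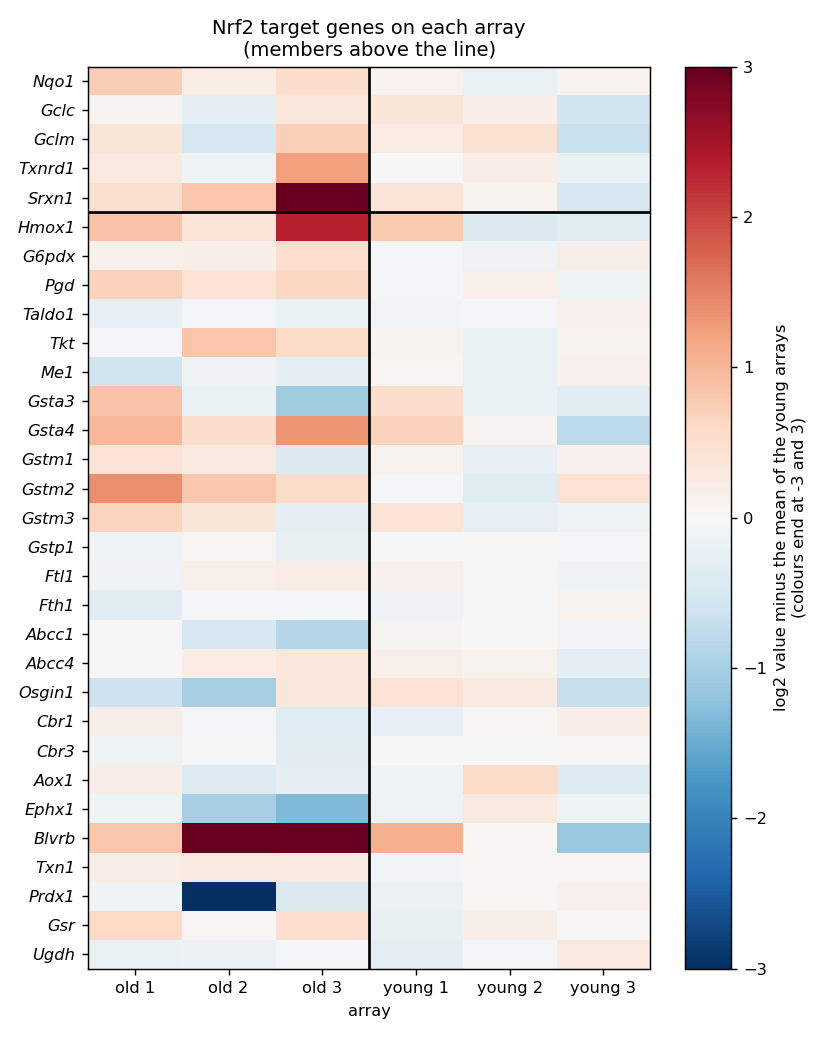
Log2 value minus the mean of the young arrays (colour, ending at -3 and 3) of the 5 Nrf2 target members (above the line) and the 26 other tested targets, with a column per array, old arrays on the left. Srxn1 and Hmox1 are deepest red on old replicate 3, and Blvrb on old replicates 2 and 3.

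The regulators of Nrf2 had a median difference of 0.00 over 16 tested genes, 8 positive and 8 negative. None passed the adjusted threshold of limma's test (lowest adjusted p = 0.255), with 2 at an unadjusted p under 0.05 (14.5% of all genes). Nfe2l2 itself, named outside the rule, had 0.10 ± 0.22, and its inhibitor Keap1 had -0.20 ± 0.21. Cul3, the scaffold of the ubiquitin ligase that Keap1 directs to Nrf2, measured 3.09, 3.13 and 3.03 on old replicates 1, 2 and 3 and 3.58, 3.47 and 3.53 on young replicates 1, 2 and 3. These values did not overlap, with a difference of -0.45 ± 0.14. Gsk3b, a kinase that marks Nrf2 for degradation, had -0.72 ± 0.26, with -0.92 and -0.01 by its other measured probes. The coactivator Crebbp had -0.39 ± 0.18, and Sqstm1, the autophagy receptor that can displace Nrf2 from Keap1, had 0.47 ± 0.26.

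Mitochondrial and peroxisomal genes beyond Sod2 and Cat lay slightly below the median of all genes. Among 10 tested mitochondrial antioxidant genes 7 had a negative difference, with a median of -0.16, and among 20 tested peroxisomal enzymes 15 did, with a median of -0.17, where 56.9% of all genes had a negative one. None passed the adjusted threshold of limma's test (lowest adjusted p = 0.209 and 0.147). At an unadjusted p under 0.05 there were 2 and 3 (14.5% of all genes). The Nrf2 target members thus had a median of 0.45 beside -0.44 for Sod2 and -0.06 for Cat. Without old replicate 3 the median of the Nrf2 target members was 0.07. No test of the contrast between these small sets was made.

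Among the mitochondrial genes, the glutaredoxin Glrx5, which serves iron-sulfur cluster assembly, measured 5.96, 6.17 and 5.93 on old replicates 1, 2 and 3 and 6.51, 6.54 and 6.75 on young replicates 1, 2 and 3. Its difference was -0.58 ± 0.16 without overlap. The methionine sulfoxide reductase Msrb2 had -0.62 ± 0.22, also without overlap. Idh2, a source of mitochondrial NADPH, had -0.45 ± 0.30 and Glrx2 -0.20 ± 0.16 (-0.17 by its other measured probe), both with overlap. Among the peroxisomal enzymes, the fatty acid transporter Abcd2 had -0.95 ± 0.21, the epoxide hydrolase Ephx2 -0.67 ± 0.22 and the enoyl-CoA isomerase Eci2 -0.34 ± 0.17. Against these stood Decr2, a reductase of unsaturated fatty acids, at 0.88 ± 0.22. In all 4 peroxisomal genes, named as those of lowest p, the ages did not overlap. Of the 20 tested, 7 did not overlap (21.8% of all genes). Of these, 1 was higher (7.93% of all genes) and 6 lower in old muscle (13.9%). The peroxins, which build the organelle, had a median of -0.18 with 11 of 16 negative (0 passing limma's adjusted threshold, and 0 at an unadjusted p under 0.05). Their lowest p-values were those of Pex11a (-0.27 ± 0.15), Pex5 (-0.33 ± 0.19), Pex7 (-0.23 ± 0.15) and Pex11g (-0.24 ± 0.19).

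**Figure D4:**
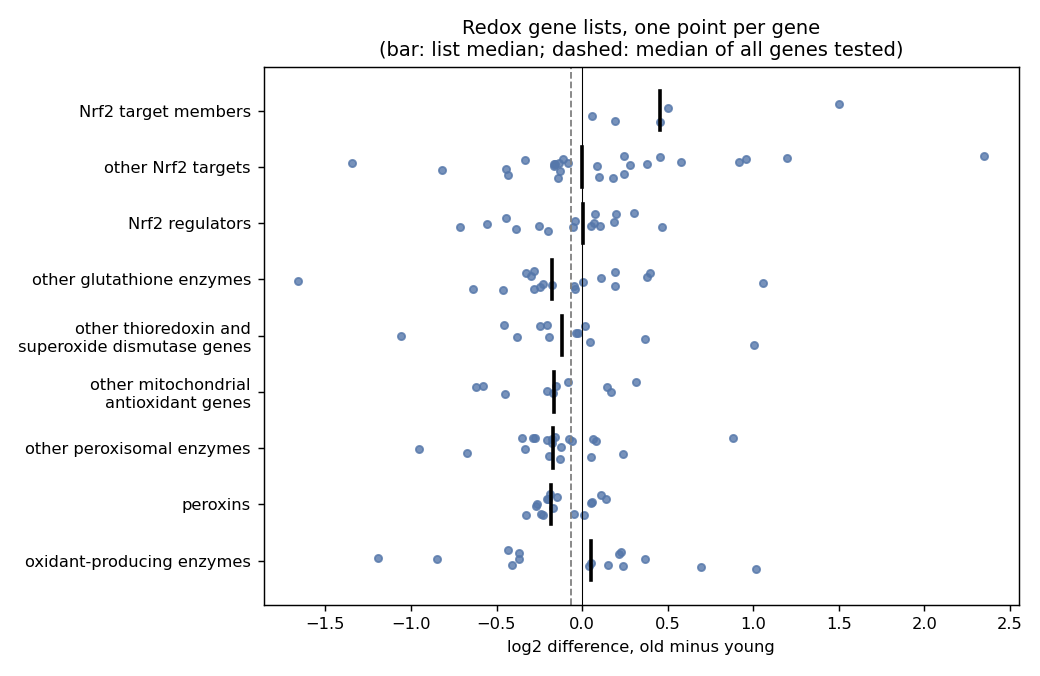
Log2 difference, old minus young (horizontal axis), of every tested gene in 9 redox gene lists, with a point per gene, a black bar at the list's median and a dashed line at the median of all genes tested (-0.06). The Nrf2 target members have a median of 0.45, while the bars of the other 8 lists lie between -0.18 and 0.05.

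The remaining thiol systems held the gene nearest to the threshold. Msrb1, a selenoprotein that reduces oxidised methionine, measured 6.53, 6.64 and 6.49 on old replicates 1, 2 and 3, against 7.61, 7.60 and 7.61 on young replicates 1, 2 and 3. The ages did not overlap and each was tight, with a difference of -1.06 ± 0.14 (limma's adjusted p = 0.0569). The list of 12 thioredoxin and superoxide dismutase genes had a median of -0.11, with 8 negative and 0 past the adjusted threshold. At an unadjusted p under 0.05 it held 1 gene (14.5% of all genes). In it Txnip, an inhibitor of thioredoxin, had 1.0 ± 0.56, with 0.83 ± 0.35 by its other measured probe, and Msrb3 had -0.38 ± 0.20. The 19 glutathione genes had a median of -0.18, with 12 negative, 0 past the adjusted threshold of limma's test (lowest adjusted p = 0.364) and 0 at an unadjusted p under 0.05. The transferase Mgst3 had -0.46 ± 0.20 (-0.40 by its other measured probe), glutathione synthetase Gss 0.38 ± 0.18, Chac2 -0.33 ± 0.18 and the transferase Gstt2 -0.64 ± 0.41.

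Genes linked to the making of superoxide, hydrogen peroxide or nitric oxide, some of them for partner proteins of the enzymes, were read as a list. They had a median of 0.05 over 15 tested, 9 positive and 6 negative. None passed the adjusted threshold of limma's test (lowest adjusted p = 0.137), with 3 at an unadjusted p under 0.05 (14.5% of all genes). Rac2 and Ncf4, components of the NADPH oxidase of phagocytes, had 1.01 ± 0.21 and 0.69 ± 0.22, both without overlap between the ages. The inducible nitric oxide synthase Nos2 had -1.19 ± 0.26 and the endothelial Nos3 -0.43 ± 0.22, also without overlap. By its other measured probe Nos3 had -0.55. The catalytic subunit of that oxidase, Cybb, named outside the rule, had 0.04 ± 0.30.

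Markers of muscle fibres and of other cells were read beside these values, as summed linear signals in units of the array's 75th percentile. Of 4 tested of 7 neutrophil markers, S100a8 and S100a9 passed limma's adjusted threshold (both adjusted p = 0.00603). Retnlg and Camp did not. The ages were fully separated in all 4, with 3 higher in old muscle and Camp lower, at -0.40. The sum of the 4 was 16.5 to 24.6 in old and 0.837 to 1.39 in young muscle. In the other lists 0 markers passed. At an unadjusted p under 0.05 there were 4 of 4 neutrophil and 5 of 9 macrophage markers. These were joined by 3 of 4 red cell and 2 of 5 fibroblast markers. There were 1 of 5 endothelial, 0 of 5 fat cell and 0 of 9 muscle fibre markers, against 14.5% of all genes. The muscle fibre markers had a median difference of -0.18, with 8 of 9 negative (56.9% of all genes). Their sums overlapped, at 5560 to 7163 in old and 6674 to 7908 in young muscle.

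The sums of several of these lists did not overlap between the ages. The 9 tested of 10 macrophage markers summed to 31.6 to 38.2 on the old arrays and 25.8 to 27.7 on the young ones. Of these 9, 7 did not overlap, all higher in old muscle (7.93% of all genes). The 4 red cell markers tested summed to 79.8 to 153 in old and 194 to 326 in young muscle. The 5 fibroblast markers summed to 165 to 327 in old and 368 to 423 in young muscle. All 5 had a negative difference (56.9% of all genes), and 3 of them did not overlap, each lower in old muscle (13.9% of all genes). The median of the 5, with each gene centred on its mean, overlapped: it was 0.10 on old replicate 3 and 0.051 on young replicate 2. The 5 endothelial markers summed to 10.2 to 12.1 in old and 13.8 to 16.1 in young muscle, though 3 of them had a positive difference. The 5 tested of 6 fat cell markers overlapped, at 107 to 142 in old and 141 to 151 in young muscle. The markers Cd163, Ngp, Ltf, Cxcr2 and Lep did not pass the filter on dim signals. Macrophages and neutrophils carry the phagocyte oxidase, and red cells are rich in peroxide-removing enzymes. The part of these cells in the members' values was not tested, and in whole muscle fewer cells of a type and less RNA per cell cannot be told apart.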

How the data were processed

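Total RNA of the gastrocnemius of 3 old and 3 young male mice was measured on Cy3 arrays, per the labels' protocols. The deposited scanner output gives each spot's processed intensity, which Agilent Feature Extraction 11.0.1.1 made by subtracting background and a spatial trend, per the file headers, while the submitters' processing notes name version 9.5. The authors' deposited value table holds intensity on a linear scale: each of its 62976 values per array lay within 1 of the processed signal divided by the array's 75th percentile, times 100, so it is not centred per gene. Its column medians were 9, 7 and 6 for old and 6, 7 and 7 for young replicates 1 to 3.

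Control spots and flagged spots (161 to 212 per array) were left out, and spots of a probe were averaged as log2 values. The 75th percentile over probes was subtracted. Of 55681 probes, 28331 matched 1 symbol in the RefSeq gene table (GRCm38.p6) and the other 27350 kept the identifier in the files. The grid file is of build mm9. The filter kept the 28012 probes called well above background in 3 or more of 6 arrays, and a gene was its brightest kept probe. The test was limma 3.58.1 in R 4.3.3, with lmFit and eBayes and two-sided, adjusted over the 20906 genes. With 3 arrays per age the smallest exact permutation p is 0.1, so no such test was used. The code was tested on simulated data, where 24.0% of 50 genes changed by a log2 of 1 and 76.0% of 50 changed by 2 passed the threshold. A gene that did not pass may therefore still differ. Python 3.11.15, pandas 2.3.3 and matplotlib 3.10.9 made tables and figures.

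The members and lists were chosen with earlier results of these data known. The naming rule gives all members, and in each of 8 pathway lists the genes past the threshold and the 4 of lowest p. Alternatives were other normalizations, normexp background correction (offset 50, on median signals), the authors' values, other filters and probe rules, trend and robust moderation, array weights, the replicate number and the slide row as blocks, and leaving out each array. A gene of the marker lists is not reported here.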

Additional observations from a re-analysis of the deposited data

How the results depend on the processing

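No member passed the adjusted threshold in any of the 18 alternatives, and 7 of the 10 members kept their sign in each. The exceptions were Cat, Gclc and Gclm. Under normexp Cat was 0.12, by its probes' mean or every probe 0.14, with slide row blocked 0.19, and -0.24 to 0.046 when each array was left out in turn. Gclc was -0.090 with median centring, -0.11 with array weights and -0.22 to 0.24 without single arrays. Gclm was -0.079 with array weights and -0.15 to 0.54 without single arrays. The median of the other enzyme members was -0.21 with median centring, 0.12 under normexp, 0.14 by the mean of probes or every probe, 0.024 with slide row blocked and -0.24 to 0.046 without single arrays. The median of the Nrf2 target members stayed between 0.07 and 0.64. Median centring moved the median of all genes from -0.06 to -0.21.

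The number of genes past the threshold was 53 (41 higher, 12 lower). It was 8 with no filter, 35 with probes above background on all arrays, 194 with array weights and 1 to 186 without single arrays: 186, 6 and 1 without old replicates 1, 2 and 3, and 10, 8 and 17 without young replicates 1, 2 and 3. Of these 41 were higher of 53 as reported, 26 of 42 with median centring, 38 of 61 under normexp and 22 of 41 with slide row blocked. The replicate number as a block gave 5. The labels do not say that same-numbered arrays were paired. Their deviations from the group means correlated at -0.06, -0.27 and 0.03, and no array correlated best with its own number. With 3 arrays per age these correlations cannot tell whether samples were paired. The causes were not tested.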

Other observations

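By the fixed rule, the genes whose values ran most like Nqo1 over the 6 arrays, among 13167 other genes with a symbol, were Il1r2 (Pearson's r = 0.995), Nsg1, H2-Q5, Chpf2 and Tjp3 (r = 0.975). Those most like Sod2 were Pabpc4 (r = 0.997), Raver2, Gfm1, the citrate synthase gene Cs and Rmdn1 (r = 0.993). These are the highest of many correlations over 6 arrays that share the age difference, and are given as a description.

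Single arrays stood far from the rest in some genes of the lists, chosen here after their values were seen. Prdx1, a cytosolic peroxiredoxin that sulfiredoxin can restore, measured 5.56, 2.16 and 5.22 on old replicates 1, 2 and 3 and 5.48, 5.69 and 5.79 on young replicates 1, 2 and 3. Chac1, which degrades glutathione, measured 7.97, 5.88 and 3.21 on old replicates 1, 2 and 3 and 7.47, 8.05 and 6.52 on young replicates 1, 2 and 3. The low array thus differed between these genes, being old replicate 2 for Prdx1, as for Sod1, and old replicate 3 for Chac1.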
